A study of Mus musculus with 4 samples.

Results

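The genes described here are 10 members of the Notch pathway and of the set of transcription factors that direct intestinal cells into secretory fates. They were taken by name from the 27998 genes of the deposited table: the receptors Notch1 and Notch2, the ligands Dll1, Dll4 and Jag1, the effector Hes1, and the fate factors Atoh1, Spdef, Gfi1 and Neurog3. All 10 were found. The cells came from dissociated small intestine of mice on a control diet or on a ketogenic diet, which is high in fat and very low in carbohydrate. Each diet had 2 libraries of 10x 3' v2 single-cell RNA. The labels give no strain, genotype, sex, age, diet composition or time on the diet, and do not say whether a library is 1 animal or a pool. The p-values below thus rest on differences among 4 libraries, part of which can be technical.

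Notch signalling passes between touching cells: a ligand of the Delta-like or Jagged type on one cell activates a Notch receptor on its neighbour, and the cleaved receptor enters the nucleus with the DNA-binding partner Rbpj and induces repressors such as Hes1. In the mouse intestinal crypt Hes1 represses Atoh1, the factor that secretory progenitors require, so cells that receive the signal become absorptive and cells that send it become secretory. Downstream of Atoh1, Spdef promotes goblet and Paneth cell maturation, Gfi1 keeps these lineages from the endocrine fate, and Neurog3 is required for enteroendocrine cells.

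The libraries held 3194 to 4896 cells and 27316428 to 34106639 unique molecular identifiers (UMIs, counted transcript molecules) each, 15053 cells in all. The authors' table put every cell in 1 of 7 types. Of 38 markers of these types, 36 were highest in their own type, and the exceptions were Fabp2, highest in goblet cells, and Muc2, highest in Paneth cells. The secretory types together were 17.9% and 18.2% of cells under the control diet, against 26.1% and 21.4% under the ketogenic diet. Markers of lymphocytes, endothelium, fibroblasts, smooth muscle, nerve and myeloid cells had from 0 to 180 UMIs each over all cells. Between libraries, 109 cell barcodes recurred. Levels are given as CPM, a gene's UMIs scaled to a common total after summing over the cells of 1 type in 1 library.

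The promoters of the fate factors Atoh1, Neurog3 and Spdef are shown. Hes1 is a DNA-binding repressor, and Rbpj is the factor through which Notch acts. Those of the other fate factor, Gfi1, held none of the motifs searched and are not shown. The sequences are from RefSeq on GRCm38.p6, 5′ to 3′ along each gene's strand, and cover the 250 bases before the transcription start. Capitals mark CACGNG in Atoh1 and Neurog3, a sequence class bound by Hes-type repressors, and TGGGAA, the core bound by Rbpj, in Spdef.
Atoh1 (chr6:64728875-64729124, plus strand): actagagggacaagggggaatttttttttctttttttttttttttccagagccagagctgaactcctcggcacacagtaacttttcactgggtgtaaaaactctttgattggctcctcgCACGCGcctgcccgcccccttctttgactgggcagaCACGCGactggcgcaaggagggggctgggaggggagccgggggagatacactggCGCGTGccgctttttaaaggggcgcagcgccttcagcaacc
Neurog3 (chr10:62132840-62133089, plus strand): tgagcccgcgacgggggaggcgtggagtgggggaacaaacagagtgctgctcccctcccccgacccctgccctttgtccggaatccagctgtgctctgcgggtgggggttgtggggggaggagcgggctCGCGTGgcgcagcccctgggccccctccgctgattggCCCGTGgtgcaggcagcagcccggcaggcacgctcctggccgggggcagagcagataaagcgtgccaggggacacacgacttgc
Spdef (chr17:27728952-27729201, minus strand): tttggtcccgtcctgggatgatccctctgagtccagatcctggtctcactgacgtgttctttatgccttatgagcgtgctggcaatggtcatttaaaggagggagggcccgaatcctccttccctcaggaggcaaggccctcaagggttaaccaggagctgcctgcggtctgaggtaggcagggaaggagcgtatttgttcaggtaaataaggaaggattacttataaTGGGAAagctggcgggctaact

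The search covered windows of 300 bases, 250 before and 50 after the start, on both strands, for CACNAG and CACGNG (Hes-type) and TGGGAA (Rbpj). CACGAG fits both Hes-type motifs, but in the members' windows no match overlapped a match of another motif. RefSeq gave windows for 9 of the 10 genes (11 windows), with none for Hes1. The Atoh1 window held 4 matches to CACGNG, at -131, -95, -41 and 16 from the start, the last lying after the printed stretch. Of 32851 mouse promoter windows, 27.5% held at least 1 such match and 0.396% held 4 or more. Atoh1 also held 1 CACNAG, at 24, a motif found in 42.5% of all windows. Neurog3 held 2 CACGNG matches, at -121 and -84, and 7.2% of all windows held 2 or more. Spdef held 1 TGGGAA, at -22, a motif in 25.6% of all windows. Over the 11 windows, CACGNG was present in 7, CACNAG in 5 and TGGGAA in 1. A match is a stretch of letters and not a measured binding site.

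Both receptors had their highest mean in stem cells and were low in goblet and Paneth cells. Notch1 (chromosome 2, 26457903 to 26516663, minus strand, GRCm38), the main Notch receptor of crypt cells, was at 62.4 and 48.7 CPM in control stem cells and at 50.8 and 40.9 CPM in ketogenic stem cells. Its mean was 50.7 ± 8.91 CPM in stem cells (SD, n = 4 libraries), 27.9 ± 2.66 CPM in transit amplifying cells and 22.8 ± 2.70 CPM in enterocytes. Stem cells did not overlap with transit amplifying cells, nor transit amplifying cells with enterocytes, whereas enterocytes, tuft cells (18.1 ± 8.10 CPM) and enteroendocrine cells (12.2 ± 2.48 CPM) overlapped in that order. Goblet cells were at 6.36 ± 1.91 CPM, below every enteroendocrine library but overlapping with the lowest tuft library, and Paneth cells held 2 Notch1 UMIs in total. The stem level was 7.97 times the goblet level. Because enterocytes are the most numerous cells, they still held 56.7% of all Notch1 UMIs.

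Notch2 (chromosome 3, 98013527 to 98150361, plus strand), a second receptor of these crypts, had few UMIs and was likewise highest in the stem and absorptive types. It was at 7.62 ± 2.71 CPM in stem cells, 6.26 ± 1.21 CPM in transit amplifying cells and 5.59 ± 0.997 CPM in enterocytes, and these 3 types overlapped. In goblet cells it was at 1.12 ± 0.666 CPM, from 18 UMIs, and enteroendocrine cells held 2 UMIs. Paneth cells held 0 Notch2 UMIs, where 3 UMIs would be 5.70 to 10.4 CPM in a library, so a level below that was not detectable there.

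The Delta-like ligands Dll1 and Dll4 were highest in secretory types, and Jag1 was not. Dll1 (chromosome 17, 15367354 to 15376872, minus strand), a Delta-like ligand of secretory progenitors, was at 161.7 and 158.3 CPM in control and 183.2 and 166.5 CPM in ketogenic goblet cells. The goblet mean of 167.4 ± 11.02 CPM stood above every library of every other type. Paneth (69.2 ± 17.5 CPM), enteroendocrine (48.3 ± 13.5 CPM) and tuft cells (36.6 ± 13.6 CPM) followed, each overlapping with the next. Stem cells (12.3 ± 6.13 CPM), enterocytes (7.72 ± 0.866 CPM) and transit amplifying cells (7.63 ± 1.46 CPM) overlapped at the bottom. Goblet cells held 70.5% of all Dll1 UMIs.

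Dll4 (chromosome 2, 119325784 to 119335962, plus strand), the other Delta-like ligand of the crypt, had a different leading type. It was at 46.3 ± 9.30 CPM in enteroendocrine cells and 39.7 ± 5.07 CPM in goblet cells, which overlapped. Paneth (24.5 ± 3.08 CPM) and tuft cells (20.8 ± 5.44 CPM) overlapped below them, and stem cells, transit amplifying cells and enterocytes were at 2.87 ± 1.31, 2.84 ± 1.29 and 1.81 ± 0.635 CPM. Jag1 (chromosome 2, 137081456 to 137116644, minus strand), a Jagged ligand, was sparse everywhere. Its highest level was 6.39 ± 0.820 CPM in enterocytes, with no overlap with goblet cells at 4.20 ± 0.773 CPM.

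Hes1 (chromosome 16, 30064384 to 30067796, plus strand), the repressor that Notch induces, was like the receptors highest in stem cells, transit amplifying cells and enterocytes. Among the secretory types the order of its means differed from that of Notch1. Hes1 was at 210.5 ± 21.1 CPM in stem cells, above every library of the other types. It was at 149.2 ± 19.7 CPM in transit amplifying cells and 136.7 ± 15.9 CPM in enterocytes, which overlapped. Goblet (39.6 ± 1.57 CPM), tuft (34.8 ± 16.4 CPM), Paneth (21.3 ± 6.77 CPM) and enteroendocrine cells (12.4 ± 2.24 CPM) overlapped in that order, all below the absorptive types. The stem level was 5.32 times the goblet level and 17.0 times the enteroendocrine level, and within single libraries the ratios were at least 4.71 and 12.5. Low Hes1 in secretory cells was therefore seen in 4 of 4 libraries.

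Atoh1 (chromosome 6, 64729125 to 64731245, plus strand) was high in goblet and Paneth cells and low in the other 5 types. In goblet cells, control libraries gave 366.4 and 328.2 CPM and ketogenic libraries 373.4 and 372.3 CPM. Its mean of 360.1 ± 21.5 CPM in goblet cells overlapped with 315.5 ± 75.1 CPM in Paneth cells. Tuft cells were at 14.5 ± 5.27 CPM, and enteroendocrine cells, stem cells, transit amplifying cells and enterocytes between 2.70 and 5.18 CPM. Goblet cells held 87.9% of all Atoh1 UMIs. The goblet level was 69.5 times that of enteroendocrine cells, which are also a secretory type.

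Spdef (chromosome 17, 27714352 to 27728955, minus strand) had the same order, with 196.6 ± 22.2 CPM in goblet and 173.4 ± 58.3 CPM in Paneth cells, then 22.8 ± 6.11 CPM in tuft cells. Gfi1 (chromosome 5, 107716657 to 107726036, minus strand), a zinc-finger repressor, was at 25.2 ± 3.87 CPM in goblet and 22.0 ± 18.3 CPM in Paneth cells, where control library 1 alone was at 48.4 CPM. The other 5 types held from 1 to 7 Gfi1 UMIs each. Neurog3 (chromosome 10, 62133090 to 62134763, plus strand) was the enteroendocrine counterpart, at 1091 and 1470 CPM in control and 1416 and 1346 CPM in ketogenic enteroendocrine cells. The enteroendocrine mean was 1331 ± 168 CPM, 47.2 times that of goblet cells (28.2 ± 6.74 CPM). Enteroendocrine cells held 86.5% of all Neurog3 UMIs and goblet cells 9.77%. Types were assigned on these same cells, so these orders are descriptions without a test.

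**Figure D1:**
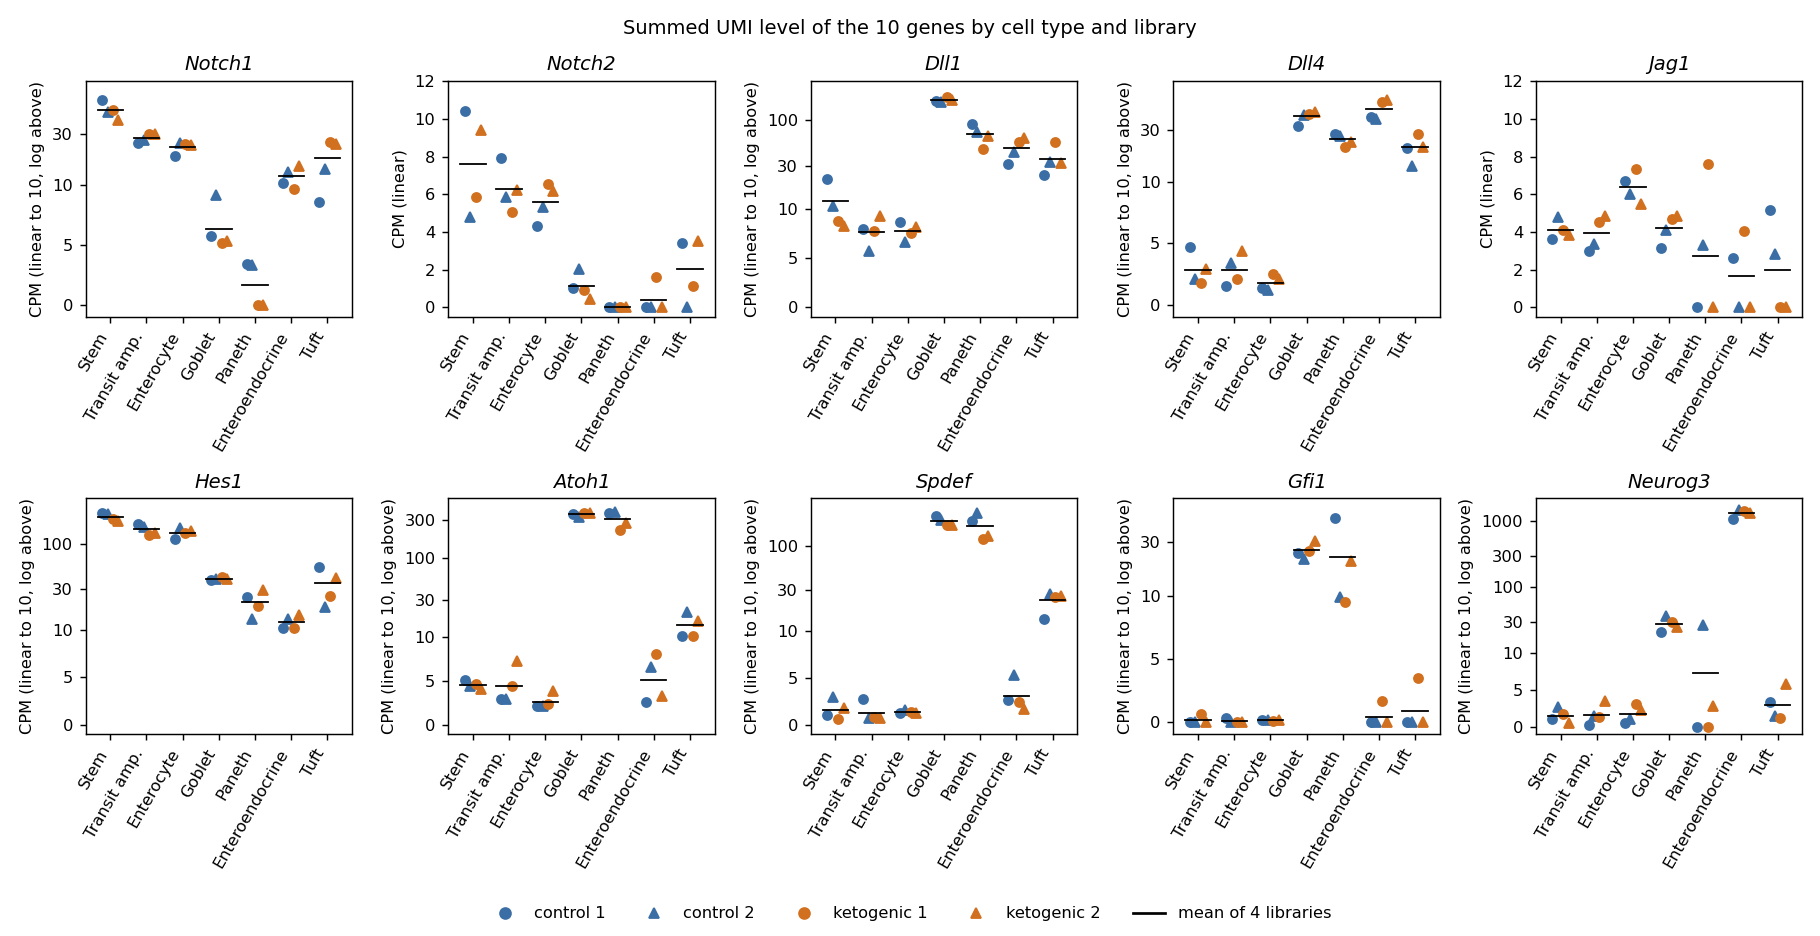
Level of each of the 10 genes in CPM (vertical axis, linear up to 10 and logarithmic above, or linear throughout for Notch2 and Jag1) in 7 cell types. Points are libraries coloured by diet and bars are means of 4 libraries. Hes1 and the receptors stand highest in stem cells, Dll1, Atoh1, Spdef and Gfi1 in goblet and Paneth cells, and Neurog3 in enteroendocrine cells.

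The share of cells with at least 1 UMI gave the same picture when every cell was thinned to 3000 UMIs and shallower cells were left out. Hes1 was found in 41.2 ± 1.90% of stem cells (SD, n = 4 libraries), 32.2 ± 4.50% of transit amplifying cells, 29.4 ± 2.97% of enterocytes and 10.8 ± 1.01% of goblet cells. Atoh1 was found in 58.8 ± 2.92% of goblet and 59.7 ± 8.16% of Paneth cells, against 0.908 ± 0.435% of enterocytes. Neurog3 was found in 67.4 ± 4.13% of enteroendocrine and 3.18 ± 0.629% of goblet cells, against 0.482 ± 0.354% of enterocytes. Dll1 was found in 38.7 ± 3.50% of goblet cells against 2.49 ± 0.265% of enterocytes. Before thinning, the kept cells had median depths of 8765 UMIs in goblet cells, 6989.5 in Paneth cells, 6039 in enteroendocrine cells and 9227 in enterocytes. Unthinned, the shares were 77.9% for Atoh1 and 68.4% for Dll1 in goblet cells and 70.3% for Neurog3 in enteroendocrine cells.

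Droplets take up free RNA from other cells, so low levels of secretory genes in absorptive cells were set beside goblet and enteroendocrine markers. In enterocytes the 6 goblet markers, among them Muc2 and Tff3, were at 0.458% to 0.834% of their goblet level. Spdef was at 0.539% to 0.780%. It stood above the highest marker in control library 2 (0.780% against 0.773%) and ketogenic library 1 (0.750% against 0.689%). In control library 1 and ketogenic library 2 it lay within the range of the markers. Atoh1 was at 0.616% to 1.06%, above the highest marker in 1 library, ketogenic 2. Dll1 in enterocytes stood at 4.09% to 5.35% of its goblet level, above all 6 markers in every library. In stem cells Atoh1 was at 1.11% to 1.42%, above the highest goblet marker in each of the 4 libraries, on 47 UMIs in all. In transit amplifying cells it was at 0.810% to 1.98%, also above the highest marker in each library. Neurog3 in enterocytes, as a share of its enteroendocrine level, was 0.0505% and 0.0699% (control) and 0.217% and 0.172% (ketogenic). The 6 enteroendocrine markers had medians of 0.0599%, 0.142%, 0.164% and 0.123% in the same libraries. Neurog3 lay within their range in 3 libraries and below it in control library 2. Chga alone made the top of this range in each library. In ketogenic libraries 1 and 2 Chga was at 0.401% and 0.432%, and Neurog3 stood above every other marker.

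**Figure D2:**
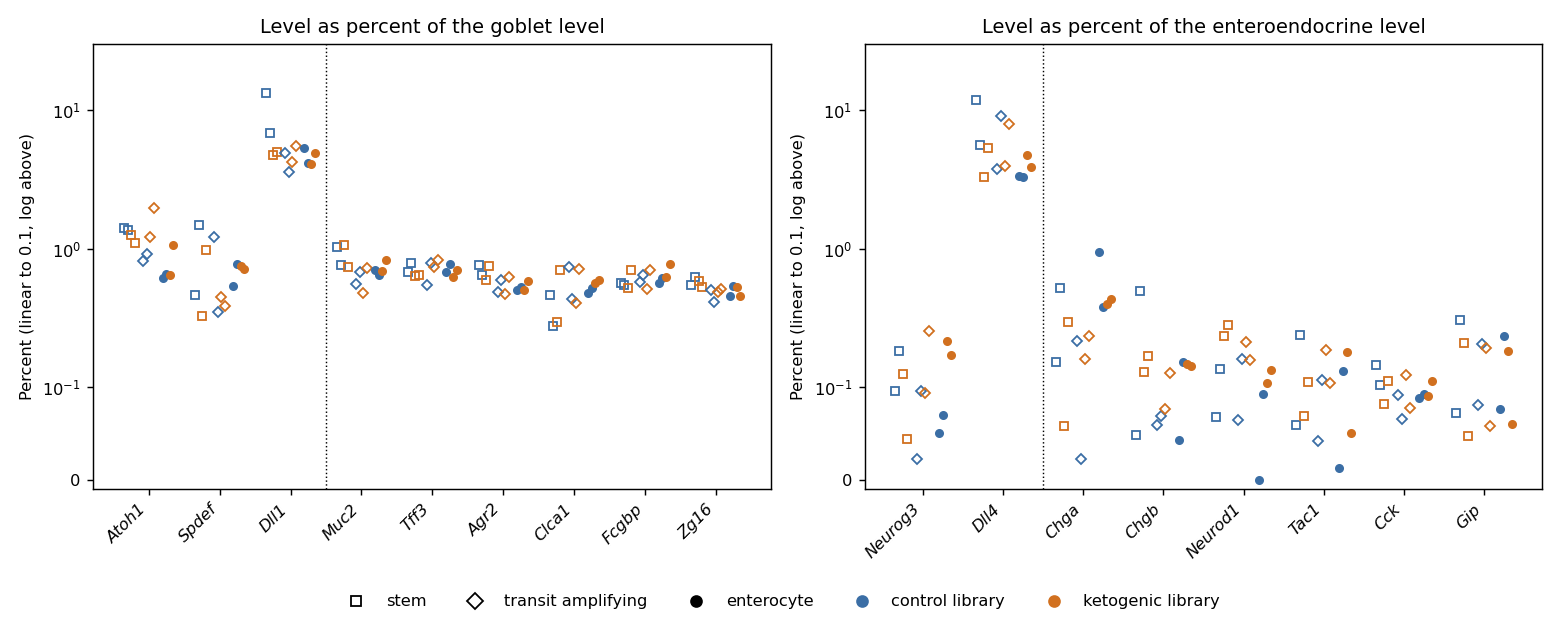
Level in stem cells, transit amplifying cells and enterocytes as a percent of the goblet level (left) or the enteroendocrine level (right), on an axis that is linear up to 0.1 and logarithmic above. Each point is a library, and genes right of the dotted line are markers of the source type. Dll1 and Dll4 stand above the markers in all 3 types. Spdef in enterocytes lies among them in control library 1 and ketogenic library 2, and just above them in control library 2 and ketogenic library 1.

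Diet was tested for each gene on sums over all cells and over each type. None of the 53 member tests in 8 sets of cells was called by edgeR at an adjusted p under 0.05 (11 were under 0.05 unadjusted), and DESeq2 called 0. Under 0.05 unadjusted by edgeR were 3 of 10 members in all cells, beside 1400 of 12784 genes. In stem cells these were 2 of 6, beside 611 of 9514. In transit amplifying cells they were 2 of 7, beside 927 of 10069. In enterocytes they were 2 of 9, beside 1159 of 11697. In goblet cells they were 1 of 9, beside 895 of 9984, and in tuft cells 1 of 6, beside 372 of 6963. In Paneth and enteroendocrine cells they were 0 of 3 each, beside 227 of 2957 and 317 of 6877. A p above the threshold does not show that the diets act alike. In all cells 0 of 10 members were called, beside 0.172% of 12784 genes. Dll4 was at 6.75 and 7.51 CPM in control and 12.01 and 10.3 CPM in ketogenic libraries. The groups did not overlap, and the log2 fold change was 0.63 ± 0.15 (SE, n = 2 libraries per diet, edgeR adjusted p = 0.228). Atoh1 was at 54.0 and 43.7 CPM against 65.6 and 60.5 CPM, with 0.35 ± 0.12 (edgeR adjusted p = 0.391). Dll1 was at 30.8 and 26.2 CPM against 39.5 and 33.3 CPM, with 0.34 ± 0.13 (edgeR adjusted p = 0.429). With Gfi1 and Notch2, 5 of 10 members were higher in both ketogenic libraries without overlap, beside 24.8% of all genes tested.

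In sums over all cells, more secretory cells and more RNA per cell cannot be told apart. With an equal share of each type in every library, the log2 fold changes of Dll4, Dll1 and Atoh1 were 0.14 ± 0.22, 0.07 ± 0.15 and -0.20 ± 0.12 (edgeR). Gfi1, which was 0.50 ± 0.22 on all cells, was then at -0.15 ± 0.41. Neurog3 on all cells was 17.5 and 37.9 CPM (control) and 70.7 and 32.1 CPM (ketogenic), beside enteroendocrine shares of 1.78%, 3.02%, 5.82% and 2.78% of cells. The order of the 4 libraries was the same for the level and for the share. Its log2 fold change was 0.87 ± 0.46 on all cells and 0.17 ± 0.14 in the equal mix. It was 0.41 without control library 1, 1.55 without control library 2, 0.16 without ketogenic library 1 and 1.35 without ketogenic library 2.

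In stem cells 0 of 6 tested members were called, beside 0.336% of 9514 genes, and 2 were lower in both ketogenic libraries, beside 18.0% of genes. Hes1 was at 230.0 and 227.2 CPM in control stem cells against 195.6 and 189.1 CPM in ketogenic stem cells, a log2 fold change of -0.25 ± 0.12 (edgeR adjusted p = 0.778). Dll1 was at 21.3 and 10.8 CPM against 8.76 and 8.23 CPM, or -0.84 ± 0.32 (edgeR adjusted p = 0.568). Control library 1 alone held the high value, and without it the fold change was -0.39 (edgeR adjusted p = 0.876). Without control library 2 it was -1.30 and passed the threshold (edgeR adjusted p = 0.0202). Ketogenic stem cells of library 1 had a median of 16.2% mitochondrial UMIs against 8.26% to 11.5% in the other libraries. In stem cells under 10% mitochondrial UMIs (149 and 312 control, 102 and 250 ketogenic cells) Hes1 was at -0.29 ± 0.12 and Dll1 at -0.44 ± 0.38 (edgeR adjusted p = 0.635 and 0.925).

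In transit amplifying cells, the dividing progeny of stem cells, 0 of 7 tested members were called, beside 0.715% of 10069 genes, and 4 did not overlap, beside 38.6% of genes. Hes1 was again lower, at 171.9 and 159.0 CPM (control) against 129.7 and 136.2 CPM (ketogenic), or -0.29 ± 0.09 (edgeR adjusted p = 0.277). Atoh1 was at 2.97 and 3.01 CPM against 4.52 and 7.37 CPM, or 1.01 ± 0.36 (edgeR adjusted p = 0.359), on 78 UMIs in all. The highest of these values came from ketogenic library 2. Notch1 and Jag1 were also higher in both ketogenic libraries, with 0.25 ± 0.14 and 0.56 ± 0.35.

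In enterocytes 0 of 9 tested members were called, beside 0.18% of 11697 genes, and 4 were higher in both ketogenic libraries, beside 21.3% of genes. Neurog3 was at 0.551 and 1.03 CPM in control and 3.08 and 2.31 CPM in ketogenic enterocytes, or 1.76 ± 0.40 (edgeR adjusted p = 0.213), from 10, 20, 46 and 38 UMIs. It was called without the filter on low counts (1.74, edgeR adjusted p = 0.0199) and without control library 2 (2.27, edgeR adjusted p = 0.0190). Its share of the enteroendocrine level was given above beside that of enteroendocrine markers, and the part of such carry-over in the result was not tested. Dll4 was at 1.32 and 1.23 CPM against 2.54 and 2.13 CPM, or 0.87 ± 0.31 (edgeR adjusted p = 0.421). Hes1 overlapped between the diets in enterocytes, at 115.9 and 154.3 CPM against 135.4 and 141.2 CPM, or 0.04 ± 0.15 (edgeR adjusted p = 0.957).

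In goblet cells 0 of 9 tested members were called, beside 0.521% of 9984 genes, and 7 did not overlap, beside 37.4% of genes. Spdef was at 224.6 and 204.1 CPM in control and 178.5 and 179.2 CPM in ketogenic goblet cells, or -0.27 ± 0.08 (edgeR adjusted p = 0.244). Atoh1 and Dll1 differed by little, with 0.10 ± 0.08 and 0.12 ± 0.09, and Gfi1 by 0.28 ± 0.15. In Paneth cells 0 of 3 tested members were called, beside 0.44% of 2957 genes. Dll1, Atoh1 and Spdef were lower without overlap in CPM, as were 57.7% of all genes tested there, and their TMM-scaled log2 fold changes were -0.07 ± 0.29, -0.13 ± 0.15 and -0.34 ± 0.18. The Paneth TMM factors were 1.16 and 1.21 for the control diet and 0.759 and 0.938 for the ketogenic diet.

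In enteroendocrine cells 0 of 3 tested members were called, beside 0.0582% of 6877 genes, and 2 were higher in both ketogenic libraries, beside 15.8% of genes. Dll1 was at 31.5 and 43.9 CPM against 55.8 and 61.9 CPM, or 0.56 ± 0.27, and Dll4 at 39.4 and 37.3 CPM against 53.4 and 55.3 CPM, or 0.51 ± 0.26 (edgeR adjusted p = 1.00 for both). Neurog3 overlapped between diets, with 0.11 ± 0.20. Without control library 2 its value was 0.44 and passed the threshold (edgeR adjusted p = 0.0419), and without control library 1 it was -0.15. In tuft cells 0 of 6 tested members were called, beside 0.0144% of 6963 genes, and 2 were higher without overlap, beside 18.8% of genes. Notch1 was at 8.58 and 14.1 CPM in control and 25.1 and 24.5 CPM in ketogenic tuft cells, or 1.06 ± 0.39 (edgeR adjusted p = 0.871), on 58 UMIs.

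**Figure D3:**
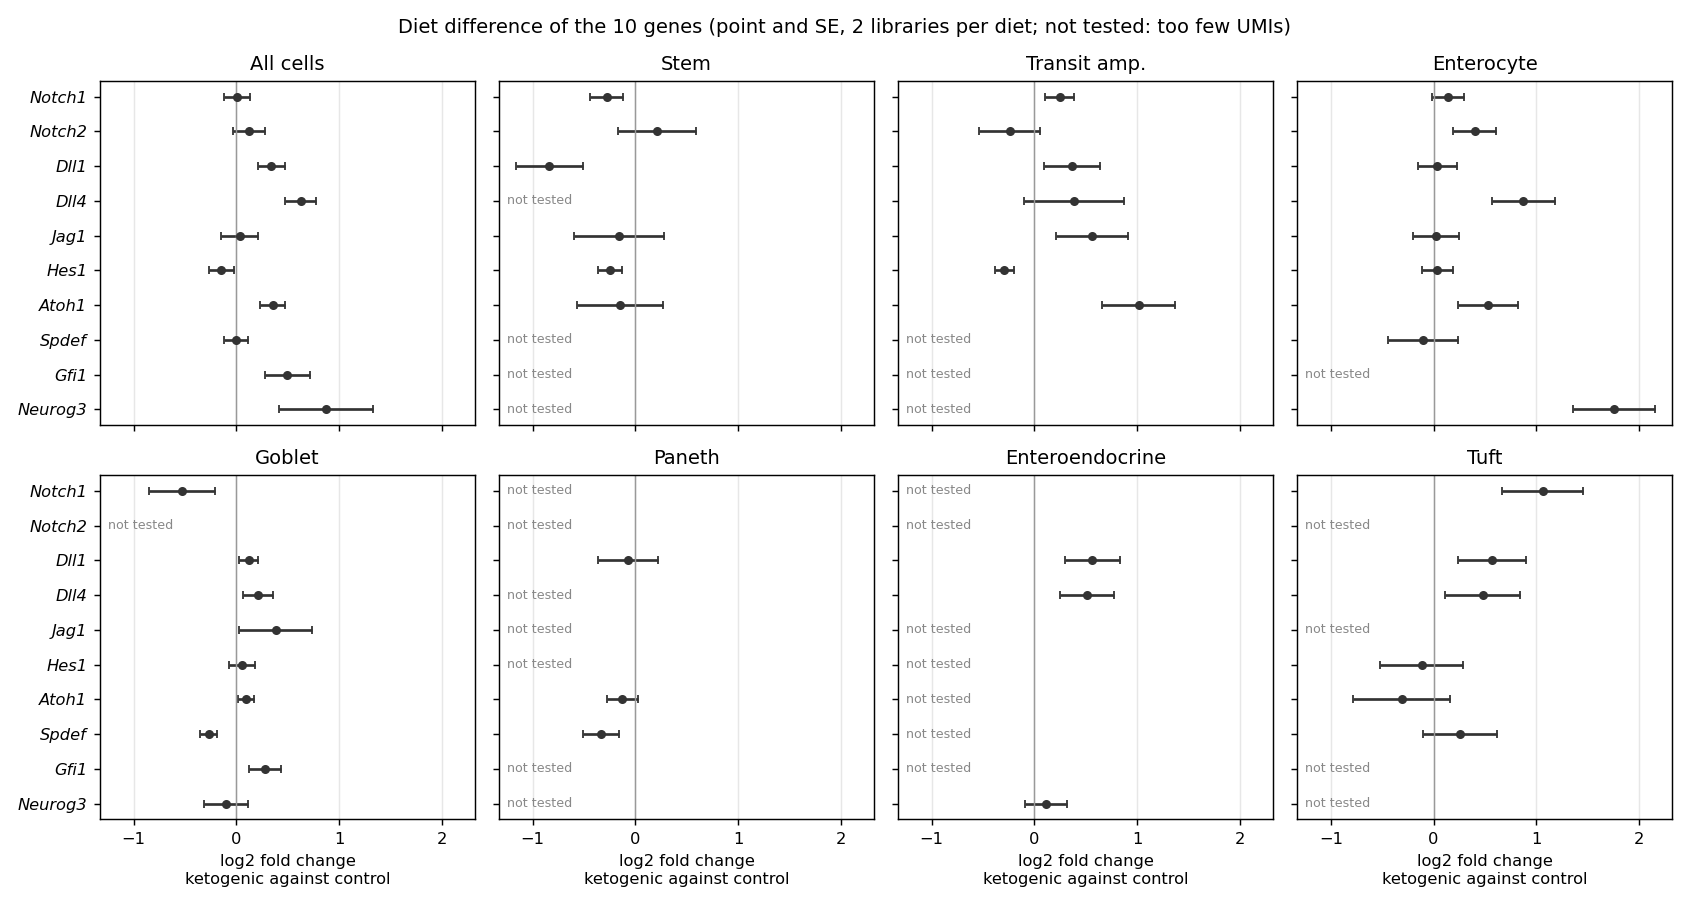
Log2 fold change of each gene, ketogenic against control, with its SE, in all cells and in each of 7 types (n = 2 libraries per diet). None of the 53 tested values was called by edgeR. Neurog3 in enterocytes (1.76) is farthest from 0.

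Whether the diet effect differed between types was tested over 28 sums with library as a block. Neurog3 was the only member called by the joint test of 6 coefficients (edgeR adjusted p = 0.00387), beside 0.883% of 11667 genes. No member was called for any single type against stem cells. All genes called there were 0.00857% in transit amplifying cells, 0.129% in enterocytes, 0.0171% in goblet, 0.0857% in Paneth, 0.0343% in enteroendocrine and 0.00857% in tuft cells. Against stem cells, the effect was 2.70 ± 0.84 higher in enterocytes and 2.42 ± 0.97 in transit amplifying cells on the log2 scale. Outside goblet, enteroendocrine and enterocyte sums, Neurog3 rested on 16 stem, 29 transit amplifying, 9 Paneth and 9 tuft UMIs. DESeq2 called 0 members. Without control library 2, Notch1, Dll1 and Hes1 were called as well as Neurog3.

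Stem and transit amplifying cells with an Atoh1 UMI, the transcript of secretory entry, were compared with those without, in cells thinned to 3000 UMIs. Hes1 had 3 UMIs in 17 Atoh1-positive stem cells and 848 in 1267 others, a ratio per cell of 0.264 (95% exact interval 0.0543 to 0.773, counting error only), lower in 4 of 4 libraries. The fitted log2 difference was -2.53 ± 0.68 (edgeR adjusted p = 0.0198, library as block), beside a median of -0.53 over all genes and 1.98% of 4536 genes called. The calls were 1-sided: 90 genes were called lower in the positive cells and 0 higher, and 3367 of the 4536 had a lower fitted value. The call was lost with RLE factors (-2.03, edgeR adjusted p = 0.984) and without thinning, where 42 positive cells gave -0.57 ± 0.20 (edgeR adjusted p = 0.517). It was also lost without control library 1, control library 2 or ketogenic library 1, at -2.64, -2.66 and -2.16. The 6 goblet markers summed to 111 to 800 CPM by library in the positive stem cells and 427 to 449 CPM in the others, higher in 3 of 4 libraries, and their part in the Hes1 value was not tested. In transit amplifying cells 0 members were called, beside 3.3% of 5507 genes, and 1, Dll1, was under 0.05 unadjusted. There too 182 genes were called lower in the positive cells and 0 higher. Hes1 had 7 UMIs in 14 positive and 779 in 1640 other transit amplifying cells, at means of 167 and 156 CPM, higher in 2 of 4 libraries and lower in the other 2. The low Hes1 of positive stem cells was thus not seen in these cells, and the difference between the types was not tested.

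Without thinning, the Delta-like ligand Dll1 had 18 UMIs over 53 Atoh1-positive transit amplifying cells, at a mean of 27.3 CPM against 6.89 CPM in 1849 others, higher in 4 of 4 libraries, or 1.83 ± 0.49 (edgeR adjusted p = 0.0575). In thinned cells it had 4 UMIs and was higher in 2 of 4 libraries (2.47 ± 1.03, edgeR adjusted p = 0.206). From the list of secretory fate factors, Klf4, a goblet cell transcription factor, was called in the same cells (2.13 ± 0.45, edgeR adjusted p = 0.00119), higher in 4 of 4 libraries. After thinning it had 3 UMIs, all in ketogenic library 2, and was not tested. Sox4, a factor of secretory progenitors, was called in Atoh1-positive stem cells (0.69 ± 0.13, edgeR adjusted p = 0.000184), but not after thinning (0.53 ± 0.31, edgeR adjusted p = 0.477). Unthinned positive transit amplifying cells were deeper, with medians of 9932.5 to 14247 UMIs by library against 8784 to 11548 in the others. Unthinned positive stem cells had medians of 8338 to 9144 UMIs against 5586.5 to 7502.5, and goblet marker sums of 366 to 764 CPM against 401 to 455 CPM, higher in 3 of 4 libraries. These calls were among 0.32% of 9384 and 0.213% of 7972 genes. The 6 goblet markers summed to 242 to 1203 CPM in the positive transit amplifying cells and 331 to 446 CPM in the others, higher in 2 of 4 libraries, 1 of the 6 was called, and the part of depth and of these markers in the unthinned values was not tested.

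Within the secretory classes the fate factors divided cells further. These splits were chosen after values were seen, the markers also shaped the classes, and no test was made. Goblet cells with a Neurog3 UMI, 57 of 1779 thinned cells, carried Atoh1 in 22.7 ± 6.24% of cells against 59.9 ± 2.71% of the rest (SD, n = 4 libraries). Spdef was found in 19.8 ± 6.15% of them against 43.4 ± 4.57%. The ranges of the 4 libraries did not overlap for either gene. They also had less of the goblet markers: Muc2 was at 435 against 2114 CPM, and Zg16 at 293 against 5961 CPM, each lower in 4 of 4 libraries. Of the dividing-cell markers, Stmn1 was at 738 against 283 CPM and Top2a at 92.3 against 43.1 CPM, higher in 4 of 4 libraries. The other 3 did not follow: Mki67 and Mcm6 were higher in 2 of 4, and Pcna was at 36.7 against 52.1 CPM, lower in 3 of 4. The 6 enteroendocrine markers had few UMIs in them: 0 of Chgb, Tac1 and Gip, 1 of Cck, and 2 each of Chga and Neurod1. Chga was at 12.8 against 0.960 CPM and Neurod1 at 11.6 against 1.15 CPM. Chgb and Tac1 were at 8.26 and 2.54 CPM in the rest. Each count in the Neurog3-positive cells is under the floor of 3 UMIs, so no direction can be read from them.

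Enteroendocrine cells with a Neurog3 UMI, 311 of 457, had Dll1 in 14.8 ± 4.43% of cells against 3.48 ± 2.84% of those without, higher in 4 of 4 libraries without overlap of the ranges. Dll4 showed no such division, at 11.2 ± 0.577% against 13.6 ± 12.2%. In mean level, Dll1 was at 65.9 against 11.6 CPM. The hormones Cck and Gip were at 228 and 201 CPM in the Neurog3-positive cells against 14277 and 15515 CPM in the others, lower in 4 of 4 libraries. The hormone Tac1 was not divided (1300.35 against 1366 CPM, higher in 2 of 4 libraries). The granule genes Chga and Chgb were at 1022 against 1128 CPM and 5095 against 7932 CPM, each lower in 3 of 4 libraries. The marker Neurod1 went the other way, at 804 against 647 CPM, higher in 4 of 4. Goblet markers moved with Dll1 in this split: Tff3 was at 4647 against 1698 CPM and Fcgbp at 494 against 169 CPM, each higher in 4 of 4 libraries, and their part in the Dll1 value was not tested. Of the other 4 goblet markers, none was higher in all 4 libraries. Stmn1 was at 618 against 146 CPM, higher in 4 of 4 libraries, but Pcna was at 10.7 against 37.9 CPM, lower in 4 of 4, and Mcm6 was lower in 3 of 4. Mki67 and Top2a were each higher in 2 of 4. In goblet cells, the share of cells with Dll1 was close with and without an Atoh1 UMI (38.6 ± 3.80% of 1043 cells against 38.9 ± 4.34% of 736), whereas Spdef was more frequent with it (47.3 ± 5.34% against 36.0 ± 3.39%, higher in 4 of 4 libraries). Notch1 was less frequent with it (1.07 ± 0.728% against 3.21 ± 1.80%, lower in 4 of 4 libraries). These Notch1 shares rest on only 11 and 24 cells over all libraries, and the lowest library share with an Atoh1 UMI was 0%.

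**Figure D4:**
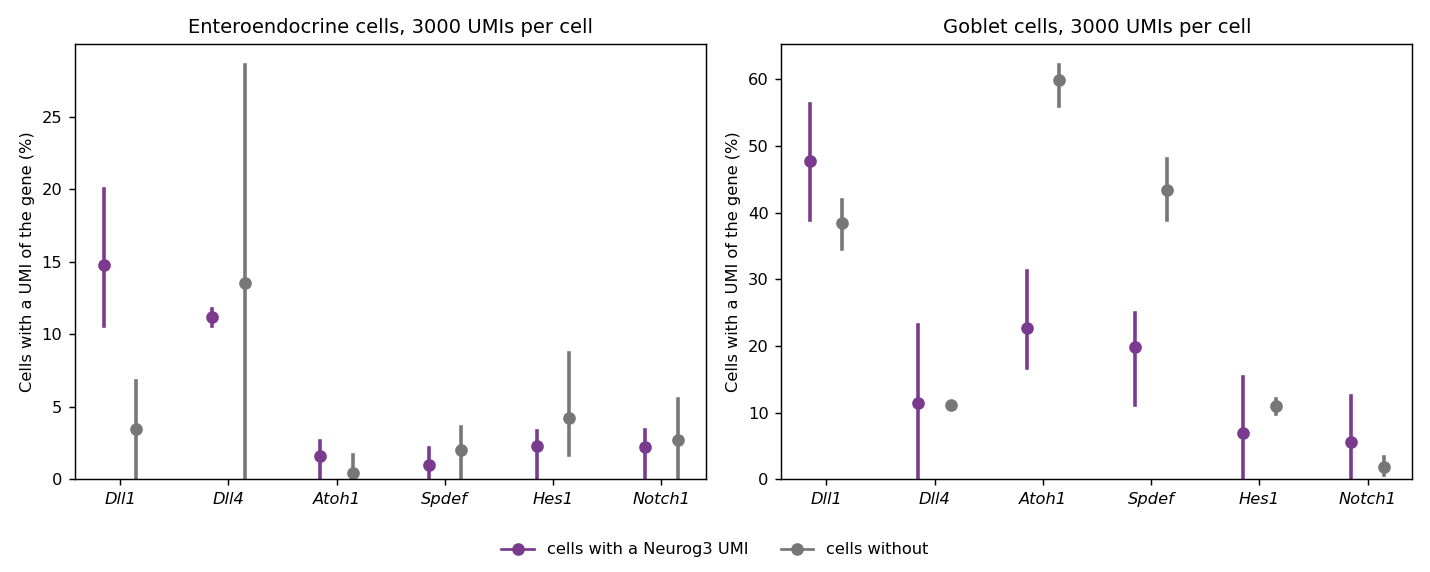
Share of cells with a UMI of each gene (percent) in enteroendocrine and goblet cells thinned to 3000 UMIs, split by a Neurog3 UMI. Points are means and bars the range of 4 libraries. Dll1 is more frequent in Neurog3-positive enteroendocrine cells (14.8% against 3.48%) and, with overlapping ranges, in Neurog3-positive goblet cells (47.8% against 38.4%). Atoh1 is less frequent in Neurog3-positive goblet cells (22.7% against 59.9%).

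Across the 28 sums of type and library, the genes whose log2(CPM + 1) followed each member most closely were named among 9298 genes. The points share libraries and depth, and the values are descriptions. Atoh1 was followed by Tpsg1, Ccl9 and the goblet marker Agr2 (Pearson r = 0.978, 0.975 and 0.975). Spdef was followed by Ern2, Tsta3 and Tspan13 (0.967, 0.966 and 0.964), and Gfi1 by Bcas1, Pla2g10 and the mucin Muc2 (0.959, 0.959 and 0.952). Neurog3 was followed by Slc39a2, Gfra3 and Insm1, the last an endocrine transcription factor (0.977, 0.975 and 0.942). Dll4 was followed by Rab15, Npdc1 and Rab27a (0.978, 0.970 and 0.963), and Dll1 by Tpd52, Wars and the goblet peptide Tff3 (0.959, 0.952 and 0.946). Hes1 was followed by 2210407C18Rik, Mybbp1a and Oat (0.949, 0.946 and 0.941), Notch1 by Mllt6, Thra and Pkig (0.962, 0.9495 and 0.942), and Notch2 by Mylk3, Hes1 and Nom1 (0.929, 0.914 and 0.911). For Jag1 the closest were Ect2, Fam120a and Dffb (0.730, 0.729 and 0.719). Among the members themselves, Atoh1 and Spdef had r = 0.961 and Hes1 and Dll4 r = -0.893, while Atoh1 and Neurog3 had r = 0.0187.

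The wider pathway was described by 4 lists of other genes. Of 28 secretory fate factors, 18 were highest in enteroendocrine cells, 5 in goblet, 4 in tuft and 1 in Paneth cells, and 0 in the absorptive types. Of 16 absorptive and stem fate factors, 7 were highest in enterocytes and 3 each in stem, enteroendocrine and tuft cells. Of 17 Notch nuclear complex and target genes with at least 20 UMIs, 8 were highest in enteroendocrine cells, Rbpj and Hes6 among them. Of 28 Notch receptor, ligand and modifier genes with at least 20 UMIs, 10 were highest in enteroendocrine and 10 in tuft cells. The share of all genes highest in each type was not counted, so these counts are not shown to be particular to the lists. By diet, 0 genes of these lists were called by edgeR in any of the 8 sets of cells. In all cells 27 of 28 secretory fate factors were higher in the ketogenic libraries, with a median log2 fold change of 0.46 and 13 under 0.05 unadjusted, beside a median of 0.01 over all genes. In the equal mix of types, 13 of 27 were higher, with a median of -0.02 and 1 under 0.05 unadjusted. Of all 9364 genes tested in that mix, 4718 were higher and 642 were under 0.05 unadjusted.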

How the data were processed

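The authors deposited a matrix of unnormalized UMI counts, plus a table naming every cell's library and type. The submitters' processing notes name Cell Ranger 2.1.0 and mm10. How cells were filtered, doublets handled and types assigned is not stated in the labels, and 10x 3' v2 counts see only transcript ends, so isoforms and protein activity are not measured. The members and lists were chosen with earlier results of these data known.

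Counts were summed per library and cell type, because cells are not replicates, and tested with edgeR 4.0.16 (quasi-likelihood, TMM, filterByExpr by diet; R 4.3.3), with Benjamini-Hochberg adjustment over all genes tested and a threshold of 0.05. CPM values use total UMIs, whereas fold changes use TMM. Library totals were 27316428 to 34106639 UMIs. A level of 3 UMIs was taken as the floor. Intervals and floors cover counting error only. The exact permutation test of 2 against 2 libraries cannot go below p = 0.33. Comparisons of shares used cells thinned to 3000 UMIs with a fixed seed. Scrublet (scanpy 1.11.5) called 0.0204% to 0.188% of cells, under 0.5%, and was taken not to have worked, so an alternative dropped the top 6% of cells by score. Other alternatives were DESeq2 1.42.0, RLE factors, no filter on low counts, cells under 10% mitochondrial UMIs, thinned sums, an equal mix of types, a replicate block, other thinning and leaving out each library. The fits were tested on simulated data. Positions are from GENCODE M21 (GRCm38), matched by symbol.

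Replicate numbers do not pair the libraries: the deviations of control and ketogenic replicates had r = -0.01 across 12784 genes. The named genes are the 10 members in every comparison, called genes of the lists (at most 6 per list) and the 3 genes most like each member among those with a mean of at least 5 CPM. Marker genes, the promoter motifs and the splits by a Neurog3 UMI lie outside that rule.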

Additional observations from a re-analysis of the deposited data

Results flagged for a closer look

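The diet effect on Neurog3 differed between cell types by the joint test of 6 coefficients (edgeR adjusted p = 0.00387). The effect was 1.76 ± 0.40 on the log2 scale in enterocytes, 0.11 ± 0.20 in enteroendocrine cells and -0.10 ± 0.22 in goblet cells. Stem, transit amplifying, Paneth and tuft cells, which also enter the test, held 16, 29, 9 and 9 Neurog3 UMIs. DESeq2 did not call it.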

How the results depend on the processing

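None of the 10 members was called by diet with a replicate block (0 in each of the 8 sets of cells), and the numbers pair no libraries. Counts of called members moved from 0 to 1 without the filter on low counts in all cells (Dll4, 0.62, edgeR adjusted p = 0.0337) and in enterocytes (Neurog3). With 1 library left out, the counts ranged from 0 to 1 in stem cells, enterocytes and enteroendocrine cells, and from 1 to 4 for the interaction. For stem cells split by an Atoh1 UMI they ranged from 0 to 1. The interaction count was 0 with DESeq2, and the Atoh1 stem count was 0 with RLE factors and 0 without thinning. The cause was not tested.

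Of 578 member fold changes under alternatives, 542 kept their direction and 36 reversed, none of the reversed ones called. Without the filter Notch1 in all cells was -0.000079. With cells under 10% mitochondrial UMIs, Notch1 was -0.013 in all cells, Dll1 -0.22 and Spdef 0.20 in enterocytes. The equal mix gave -0.20 for Atoh1 and -0.15 for Gfi1. Thinned sums gave -0.20 for Notch2 in stem cells. Without high doublet scores, Spdef was 0.023 in enterocytes, and Hes1 -0.045 and Neurog3 0.033 in goblet cells. Leaving out 1 library gave, in all cells, Notch1 -0.14 to 0.16, Spdef -0.12 to 0.11 and Jag1 -0.17 to 0.21. It gave Notch2 -0.31 to 0.73 in stem cells and Dll4 -0.20 to 1.19 in transit amplifying cells. In enterocytes it gave Notch1 -0.051 to 0.34, Hes1 -0.17 to 0.25, Dll1 -0.15 to 0.23, Jag1 -0.26 to 0.26 and Spdef -0.29 to 0.11. In goblet cells it gave Hes1 -0.019 to 0.12 and Neurog3 -0.47 to 0.39, in Paneth cells Dll1 -0.22 to 0.15, and in enteroendocrine cells Neurog3 -0.15 to 0.44. In tuft cells it gave Hes1 -0.75 to 0.81, Spdef -0.11 to 0.87 and Atoh1 -0.70 to 0.35. For stem cells split by an Atoh1 UMI, Notch1 (0.22) was -0.12 without the filter, -0.17 without thinning, -7.17 at 1500 UMIs and -0.60 to 0.66 with 1 library left out.

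With 2 libraries per diet, a lone library is assumed to vary like the others when its partner is left out. Low UMI numbers limit Gfi1, Notch2, Jag1 and every member in Paneth cells.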
